A study of Nicotiana tabacum with 60 samples.

Results

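The tobacco line Δ3'-*psbD* is a knockout of photosystem II (PSII). Its plastid DNA carries an *aadA* resistance cassette and lacks the stretch that runs from the last part of *psbD* into *psbC*, most of which is gone as well. It was set against pRB8c, a transplastomic line that carries *aadA* and serves as its control. Ribosome footprints (Ribo-seq) and total RNA (RNA-seq) were each sequenced from 3 samples of either line, which are 12 of the 60 libraries of a series on 10 tobacco lines. Of the 78 chloroplast genes in the tables, 77 reached 10 counts in 3 or more libraries of both types and were tested. The gene left out was *matK*. All plants were *Nicotiana tabacum* Petit Havana, raised in sterile culture on MS medium with 3% sucrose in low light and taken at a size equivalent to the 4-leaf stage of a seedling. The sources used here do not say whether the samples of a line descend from 1 transformation event. The tissue was bulk leaf material, in which fewer cells of a type and less RNA per cell cannot be told apart, and the tables hold chloroplast genes only, so markers of leaf cell types were not analysed here.

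PSII splits water in the thylakoid membrane. Its reaction center is a pair of related proteins, D1 (from *psbA*) and D2 (from *psbD*), flanked by the inner antenna proteins CP47 (from *psbB*) and CP43 (from *psbC*) and by small subunits such as cytochrome *b*559. Assembly starts from D2 with cytochrome *b*559 and proceeds through D1 and CP47 before CP43 joins. In the green alga *Chlamydomonas* the making of several subunits depends on whether their assembly partners are present, and the study asked whether plants share this, here in a line whose *psbD* reading frame is cut short and whose *psbC* lacks its start. Footprints per reading frame are taken as translation output, RNA-seq reads as transcript accumulation, and the change in footprints over the change in RNA as translation efficiency.

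Chloroplast reads made up a smaller part of the mapped footprints in the mutant. Their share was 10.3% ± 1.11 in Δ3'-*psbD* and 24.2% ± 2.85 in pRB8c (SD, n = 3 each). A two-sided exact permutation test gave p = 0.1, which is as low as 3 against 3 can go. Of the chloroplast footprints, 53.3%, 55.3% and 24.4% lay in reading frames in Δ3'-*psbD* replicates 1 to 3, against 92.7%, 84.0% and 81.2% in pRB8c. Reading frames held 302078 to 470814 footprints per Δ3'-*psbD* library against 1334157 to 2204303 per pRB8c library. In RNA-seq they held 9549516 to 13549931 reads against 9687269 to 11255678. The third Ribo-seq library of the mutant stood apart: its counts differed from those of mutant replicates 1 and 2 by a chi-square of 820 and 780 per degree of freedom, in that order, against 21.6 between the other two of that line. Among pRB8c libraries the same measure was 563.1 and 519.5 for replicate 1 against replicates 2 and 3, and 163.7 between those. It grows with the number of reads and the pRB8c libraries were deeper, so values of the 2 lines are not on 1 scale. Values without the third mutant library are given where it changes a call on a PSII gene. That library was picked from these same counts, and the 2 that remain gave a lower chi-square than any pair of pRB8c libraries. The p-values without it may therefore be too small. Leaving out each other library is described at the end of the results. Levels are reading-frame counts scaled to CPM with TMM factors (scaled CPM), so each change is relative to the other chloroplast genes. A ± after a log2 change is its standard error. "Rose" and "fell" are used for genes with an edgeR adjusted p no larger than 0.01. With library totals alone as the scale, the all-gene median log2 change was 1.16 in footprints and 1.08 in RNA, against 0.02 and 0.35 with TMM. On that scale *clpP*, *ndhJ*, *psaB* and *ycf3* in footprints and *atpB*, *petB*, *psbH*, *psbM*, *psbT* and *rbcL* in RNA, all lower with TMM, turned positive. On log2(RPKM + 1), which counts reads of all genomes, the footprints of *rpl2*, *rpl23*, *rpl36* and *ycf4*, all higher with TMM, turned negative. The medians of the *atpI* operon in RNA and of the large ribosomal subunit and *rpl23* operon in translation efficiency equalled the all-gene median. Every other list's median kept its place above or below the all-gene median under every scaling and tool tried. A change of scale moves all genes by nearly the same amount, so for the scalings this was close to fixed in advance.

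**Figure D1:**
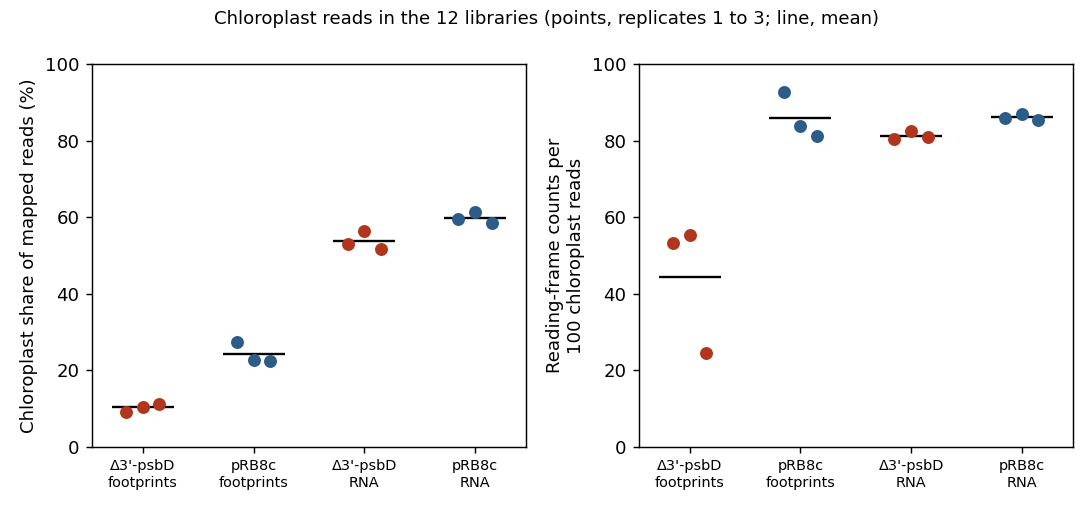
Share of mapped reads from the chloroplast (left, percent) and reading-frame counts per 100 chloroplast reads (right) in each Ribo-seq and RNA-seq library of Δ3'-psbD and pRB8c, with the mean of 3 replicates as a line. Both footprint shares of the mutant lie below those of pRB8c in every library, and replicate 3 of the mutant is at 24.4% in the right panel.

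Almost no footprints lay on *psbC* in the mutant. Δ3'-*psbD* libraries held 238, 152 and 1052 footprints in its counted window (35530 to 36875 on the plus strand of the tobacco chloroplast genome) against 90158, 78081 and 139675 in pRB8c. On the scale of the other genes this was 331, 262 and 2457 scaled CPM in Δ3'-*psbD* against 79862, 96543 and 90768 in pRB8c. The third mutant library was thus the highest of the mutant, yet far under every control library. The log2 change was −6.46 (± 1.04, edgeR adjusted p = 0.00434), and −8.17 without that library. *psbC* RNA stayed measurable, at 10332, 11603 and 13244 scaled CPM in the mutant against 77992, 83681 and 91016 in the control. It fell by a factor of 7.18 (−2.84 ± 0.16, edgeR adjusted p = 4.25e-24). The counted window takes in both the deleted 5' portion and the retained 3' portion of the gene, so a value for the retained part alone was not analysed here.

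*psbD*, counted from 34485 to 35506 directly upstream, kept more of both. Its footprints were at 28507, 30991 and 42356 scaled CPM in Δ3'-*psbD* against 60510, 78313 and 62779 in pRB8c, with no overlap between the lines. The log2 change of −0.99 (± 0.22) missed the threshold at an edgeR adjusted p of 0.0128, and passed it without the third mutant library (−1.13, edgeR adjusted p = 1.5e-05). As a plain share of reading-frame footprints, *psbD* took 4.35%, 4.71% and 6% in the mutant against 4.35%, 4.75% and 4.38% in the control. Those shares overlap, so the lower value comes with the TMM scale. The last part of the counted *psbD* window is deleted in the mutant, so these values do not cover the same sequence in both lines, and the retained part alone was not analysed here. *psbD* RNA fell, to 17712, 26470 and 18527 scaled CPM in Δ3'-*psbD* against 40145, 47591 and 48549 in pRB8c (log2 change −1.12 ± 0.15, edgeR adjusted p = 1.86e-09). *psbZ*, the small PSII subunit gene at the end of the same operon, had values of the other sign. Its footprints were at 7637, 7181 and 7233 scaled CPM in the mutant and 4220, 6109 and 4060 in the control (log2 change 0.62 ± 0.20, edgeR adjusted p = 0.0436), and passed the threshold without the third mutant library (0.68, edgeR adjusted p = 0.00871). *psbZ* RNA had a log2 change of 0.40 (± 0.16, edgeR adjusted p = 0.0216). From *psbD* to *psbC* to *psbZ*, the log2 fold changes of RNA along the operon were thus −1.12, −2.84 and 0.40.

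**Figure D2:**
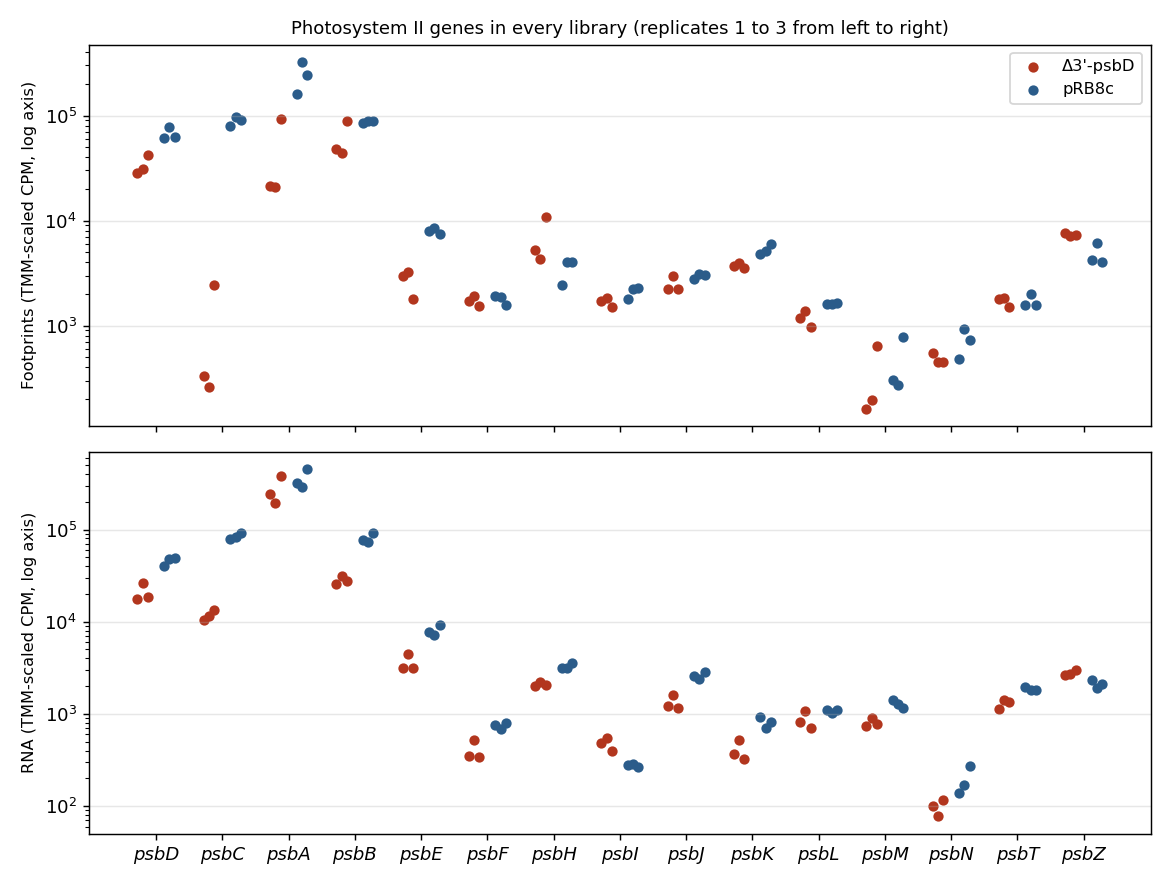
Footprints (top) and RNA (bottom) of the 15 PSII genes in every library, in TMM-scaled CPM on a log axis, with Δ3'-psbD left of pRB8c and replicates 1 to 3 from left to right. In footprints psbC of the mutant lies at 262 to 2457 against 79862 to 96543 in pRB8c, while most small subunit genes overlap or lie close.

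The other PSII genes split between the levels measured. In translation output 9 of 77 genes were higher (11.7%) and 10 lower (13%) past the threshold by edgeR, and of the 13 PSII genes outside the deletion 1 was lower, none was higher and 12 did not pass the test. Their median log2 fold change was −0.46, against 0.02 over all genes tested. In RNA 31 genes were higher (40.3%) and 22 lower (28.6%), and of the same 13 PSII genes 9 were lower, 1 was higher and 3 did not pass. Their median in RNA was −0.69 against 0.35 over all genes.

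*psbA*, for D1, had far fewer footprints in 2 of the mutant libraries. Δ3'-*psbD* showed 21363, 20926 and 92374 scaled CPM against 159162, 323176 and 243582 in pRB8c. The lines did not overlap, but the third mutant library stood far above replicates 1 and 2. The log2 change was −2.43 (± 0.66, edgeR adjusted p = 0.0256), and −3.46 without that library (edgeR adjusted p = 4.56e-08). With the replicate number as a block and every library kept, the footprint change passed at −2.76 (edgeR adjusted p = 0.00546). Whether the footprint samples are paired, as that fit assumes, is not settled. *psbA* RNA did overlap, at 244447, 195874 and 383292 scaled CPM in the mutant against 322041, 289646 and 449040 in the control (log2 change −0.37 ± 0.21, edgeR adjusted p = 0.114). Fitted with the replicate number as a block, which pairs the RNA-seq samples, it passed at −0.40 (edgeR adjusted p = 0.0053), and without the third mutant library it passed at −0.76 (edgeR adjusted p = 7.3e-04). In raw shares *psbA* was 33.7%, 27.0% and 41.6% of reading-frame RNA in Δ3'-*psbD*, against 27.1%, 24.1% and 31.1% in pRB8c, while its footprint share was 3.26%, 3.18% and 13.1% against 11.4%, 19.6% and 17.0%. The RNA share of *psbA* was therefore not lower in the mutant in any pair of same-numbered libraries.

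*psbB*, for CP47, heads an operon with *psbT*, *psbH*, *petB* and *petD*, of which 4 genes fell in RNA and none was called in footprints. *psbB* RNA fell to 25451, 31036 and 27975 scaled CPM in Δ3'-*psbD*, against 76753, 74141 and 90850 in pRB8c (log2 change −1.52 ± 0.15, edgeR adjusted p = 1.82e-13). Its footprints were at 48457, 44402 and 87949 scaled CPM in the mutant against 85604, 88853 and 88326 in the control. Replicates 1 and 2 lay well under the control and replicate 3 within it, which gave −0.54 (± 0.29, edgeR adjusted p = 0.160), and −0.87 without replicate 3 (edgeR adjusted p = 4e-05). *psbH*, for a phosphoprotein next to CP47, had 5212, 4275 and 10886 scaled CPM of footprints against 2435, 4006 and 4075, above the control in every library (log2 change 0.95 ± 0.40, edgeR adjusted p = 0.0914). Its RNA fell by 0.65 on the log2 scale (± 0.16, edgeR adjusted p = 2.50e-04). The gene of the operon that did not pass in RNA was *petD* (−0.35 ± 0.15, edgeR adjusted p = 0.03). For *psbT*, a small subunit gene, the values were −0.53 in RNA (± 0.18, edgeR adjusted p = 0.00729) and −0.00 in footprints (± 0.16, edgeR adjusted p = 0.983). *psbN*, which lies on the opposite strand between *psbT* and *psbH* and encodes an assembly factor, changed by −0.97 in RNA (± 0.22, edgeR adjusted p = 1.43e-04). The sources used here do not state whether strand was used in counting, so its reads and those of its neighbours may be mixed.

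*psbE*, for the α subunit of cytochrome *b*559, was the one PSII gene outside the deletion to fall in footprints. It had 2968, 3228 and 1787 scaled CPM in Δ3'-*psbD* against 7890, 8489 and 7521 in pRB8c (log2 change −1.58 ± 0.25, edgeR adjusted p = 0.00434). Its RNA fell by 1.16 on the log2 scale (± 0.15, edgeR adjusted p = 4.78e-10). The 3 genes that share its transcript did not drop alike in footprints: *psbF* (the β subunit) was at −0.05 (± 0.15), *psbL* at −0.46 (± 0.15) and *psbJ* at −0.27 (± 0.16), with edgeR adjusted p of 0.779, 0.0446 and 0.191. In RNA *psbF* and *psbJ* fell, by 0.89 (± 0.23) and 0.99 (± 0.17), and *psbL* did not pass (−0.31 ± 0.21, edgeR adjusted p = 0.170). The remaining small PSII subunit genes, *psbI*, *psbK* and *psbM*, lay between −0.53 and −0.32 in footprints, and none passed. In RNA *psbK* fell by 1.01 (± 0.23, edgeR adjusted p = 1.30e-04) and *psbM* by 0.69 (± 0.20, edgeR adjusted p = 0.00202). *psbI*, next to *psbK*, rose instead, to 477, 551 and 398 scaled CPM in the mutant against 276, 283 and 267 in the control (log2 change 0.79 ± 0.23, edgeR adjusted p = 0.00184).

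Genes of the other complexes of photosynthesis moved unevenly. In photosystem I (PSI) 2 of 5 genes were lower in translation output and 3 of 5 in RNA, with medians of −0.49 and −0.65. Over all 77 genes 13% were lower in translation output and 28.6% in RNA, with medians of 0.02 and 0.35. *psaA*, for a reaction center protein of PSI, was even across libraries, at 46807, 49304 and 45317 scaled CPM of footprints in Δ3'-*psbD* against 119255, 116708 and 117659 in pRB8c (log2 change −1.32 ± 0.15, edgeR adjusted p = 0.00227). *psaB*, for its partner, fell by 0.85 (± 0.17, edgeR adjusted p = 0.00720). In RNA *psaA* fell by 1.59 (± 0.15) and *psaB* by 1.36 (± 0.15), with edgeR adjusted p of 1.87e-14 and 3.32e-12. The third gene of that operon, *rps14*, encodes a ribosomal protein. Its RNA fell with them, to 2660, 3130 and 2941 scaled CPM against 8337, 7495 and 9227 (log2 change −1.52 ± 0.14, edgeR adjusted p = 1.87e-14), while its footprints were at 1992, 1951 and 3854 against 1452, 1741 and 3098 (log2 change 0.31 ± 0.38, edgeR adjusted p = 0.508). *psaI*, a small PSI subunit gene, was at 0.45 ± 0.23 in RNA (edgeR adjusted p = 0.0734) and passed with the replicate block (0.45, edgeR adjusted p = 0.00748). Of the 2 PSI assembly factors, *ycf3* was lower in footprints (−1.06 ± 0.18, edgeR adjusted p = 0.00443) and *ycf4* higher (1.11 ± 0.13, edgeR adjusted p = 0.00227).

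For the cytochrome *b*6*f* complex and the ATP synthase, edgeR called 0 of 6 genes each in translation output, with 0 and 1 at an unadjusted p under 0.05 and medians of −0.07 and −0.24. Their largest values were −0.46 for *petL* (± 0.27, edgeR adjusted p = 0.183) and −0.49 for *atpE* (± 0.16, edgeR adjusted p = 0.0446). With DESeq2's Wald test the lower *atpE* was the only one of the 12 to pass. In RNA both complexes held genes that fell, among them *petN* at −0.84 (± 0.23, edgeR adjusted p = 0.00116) and *atpE* at −0.76 (± 0.15, edgeR adjusted p = 1.28e-05). *petA*, for cytochrome *f*, and *petL* rose in RNA, by 0.74 (± 0.17) and 0.68 (± 0.19), with edgeR adjusted p of 1.45e-04 and 0.00162.

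*rbcL*, for the large subunit of Rubisco, was lower in both readouts. Footprints were at 269910, 267236 and 151362 scaled CPM in Δ3'-*psbD* against 600340, 635618 and 533208 in pRB8c (log2 change −1.36 ± 0.25, edgeR adjusted p = 0.00581). RNA fell by 0.69 (± 0.20, edgeR adjusted p = 0.00213). It took 41.2%, 40.6% and 21.5% of reading-frame footprints in the mutant against 43.1%, 38.5% and 37.2% in the control. The shares of the first 2 mutant libraries are thus within the control range, and the fall of *rbcL* is one relative to the typical chloroplast gene.

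The NDH complex, which passes electrons around PSI, had mostly negative values in footprints and mixed ones in RNA. Of its 11 genes, 10 had a negative value in translation output, where 3 were lower and none higher, with a median of −0.76. In RNA 5 were higher and 1 lower, with a median of 0.25. Over all genes 13% were lower in translation output. In RNA 40.3% of all genes were higher and 28.6% lower, with a median of 0.35. *ndhA* had 486, 561 and 182 scaled CPM of footprints in Δ3'-*psbD* against 1846, 1865 and 1460 in pRB8c (log2 change −2.06 ± 0.39, edgeR adjusted p = 0.00593), and its RNA fell by 0.93 (± 0.18, edgeR adjusted p = 6.12e-06). *ndhG* had 450, 418 and 299 against 1407, 1124 and 1168 (log2 change −1.66 ± 0.20, edgeR adjusted p = 0.00227), with RNA at −0.20 (± 0.21, edgeR adjusted p = 0.397). *ndhJ* moved in opposite directions, with footprints at −0.89 (± 0.16, edgeR adjusted p = 0.00581) and RNA at 0.85 (± 0.23, edgeR adjusted p = 8.51e-04). It was the 1 gene called both ways, beside 13 genes called in the same direction in both readouts. The other members of its operon, *ndhC* and *ndhK*, also rose in RNA, by 0.87 (± 0.23) and 0.98 (± 0.23), with edgeR adjusted p of 8.81e-04 and 1.51e-04, and their footprints were at −0.34 (± 0.17) and −0.23 (± 0.17). In the operon from *ndhH* to *ndhD* all 7 footprint values were negative, and 2 genes passed the threshold.

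**Figure D3:**
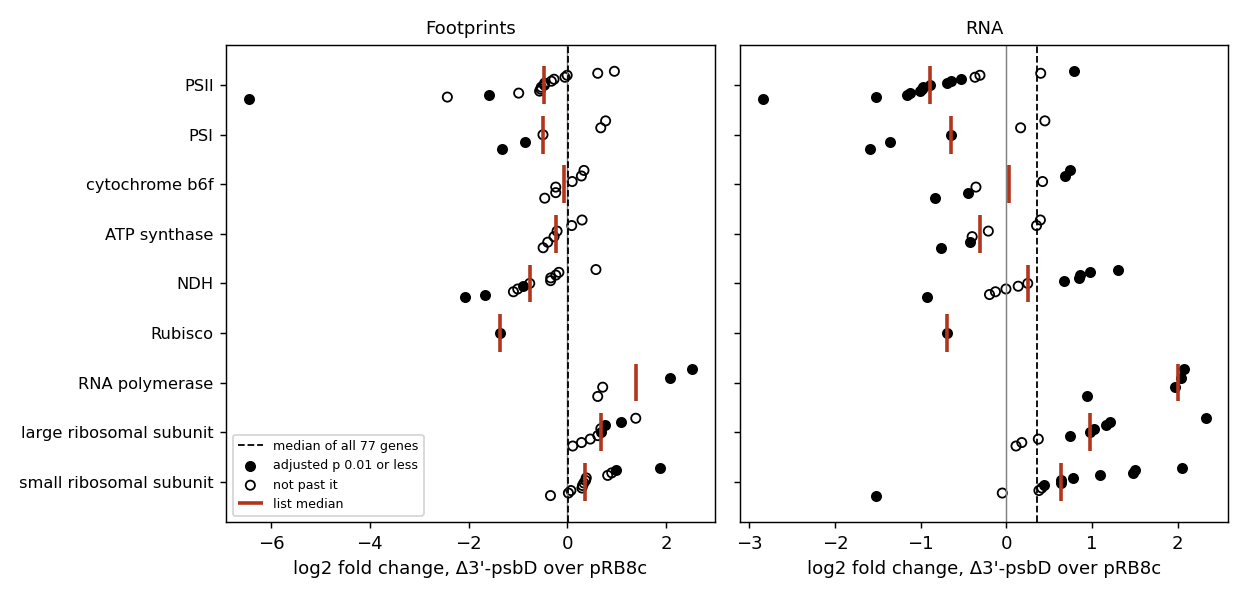
log2 fold change of each gene (Δ3'-psbD over pRB8c) in footprints (left) and RNA (right), by complex, with filled points for an edgeR adjusted p of 0.01 or less, a red bar for the list median and a dashed line for the median of all 77 genes. In footprints RNA polymerase and large ribosomal subunit genes all lie right of 0, and 10 of 11 NDH genes left of it.

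Among genes of the expression machinery, the 4 subunit genes of the plastid-encoded RNA polymerase all rose in RNA, and 2 of 4 rose in translation output, where the median was 1.40. Of all genes tested, 40.3% rose in RNA and 11.7% in translation output. *rpoC2* had 2570, 1587 and 4921 scaled CPM of footprints in Δ3'-*psbD* against 702, 449 and 417 in pRB8c (log2 change 2.53 ± 0.45, edgeR adjusted p = 0.00565). *rpoC1* had 750, 591 and 965 against 239, 173 and 133 (log2 change 2.08 ± 0.29, edgeR adjusted p = 0.00434). Every mutant library lay above every control library for both genes. *rpoB*, the first gene of the same transcript, had 628, 544 and 1380 scaled CPM of footprints against 495, 427 and 625 (log2 change 0.72 ± 0.38, edgeR adjusted p = 0.157), although its RNA rose by 2.04 (± 0.18, edgeR adjusted p = 2.06e-15). *rpoA*, in the ribosomal protein operon, rose by 0.95 in RNA (± 0.22, edgeR adjusted p = 1.45e-04) and was at 0.62 in footprints (± 0.19, edgeR adjusted p = 0.0358).

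Ribosomal protein genes had mostly positive values. In the large subunit 9 of 9 had a positive footprint value and 3 rose, with a median of 0.68, and in RNA 6 of 9 rose with a median of 0.97. In the small subunit 11 of 12 were positive in footprints and 2 rose, with a median of 0.35, and in RNA 8 rose and 1, *rps14*, fell. The shares that rose over all genes were 11.7% in footprints and 40.3% in RNA. *rps18* rose most in footprints, to 1924, 1444 and 3314 scaled CPM in Δ3'-*psbD* against 621, 631 and 562 in pRB8c (log2 change 1.88 ± 0.31, edgeR adjusted p = 0.00434). *rpl33*, next to it, was at 675, 485 and 1509 against 304, 314 and 398 in footprints (log2 change 1.39 ± 0.42, edgeR adjusted p = 0.0360) and rose by 2.33 in RNA (± 0.22, edgeR adjusted p = 1.76e-14). *rpl36*, in the *rpl23* operon, rose in footprints by 1.08 (± 0.20, edgeR adjusted p = 0.00581). *rpl2* and *rpl23*, at the start of that operon, rose by 0.68 (± 0.12) and 0.77 (± 0.15), with edgeR adjusted p of 0.00581 and 0.00593. Both lie in the inverted repeat, where reads of the copies cannot be told apart. In that operon all 11 footprint values and all 11 RNA values were positive.

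Other reading frames with large changes served several functions. *accD*, for a subunit of acetyl-CoA carboxylase in fatty acid synthesis, rose in RNA by a factor of 3.96 (1.98 ± 0.20, edgeR adjusted p = 1.82e-13). Its footprints were at 4796, 2953 and 6736 scaled CPM in Δ3'-*psbD* against 2015, 2002 and 1842 in pRB8c (log2 change 1.31 ± 0.29, edgeR adjusted p = 0.0126), so every mutant library was higher though the threshold was missed. *ycf2*, a large reading frame of the inverted repeat, rose in footprints by 1.99 (± 0.32, edgeR adjusted p = 0.00434) and in RNA by 2.21 (± 0.19, edgeR adjusted p = 2.46e-15). *clpP*, for a protease subunit, fell in footprints, to 908, 869 and 696 scaled CPM against 1630, 1719 and 1505 (log2 change −0.97 ± 0.15, edgeR adjusted p = 0.00434), with RNA at −0.20 (± 0.17, edgeR adjusted p = 0.270). *cemA*, for a chloroplast envelope protein, rose in RNA and was not called in footprints. Its RNA was at 2563, 1767 and 1772 scaled CPM in the mutant against 607, 461 and 450 in the control (log2 change 2.01 ± 0.21, edgeR adjusted p = 3.81e-13). Its footprints were few, 140, 77 and 182 counts against 209, 111 and 267, with a log2 change of 0.58 (± 0.45, edgeR adjusted p = 0.299). *ycf4*, in the same operon, rose in RNA by 1.43 (± 0.20, edgeR adjusted p = 9.18e-09).

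Both readouts went broadly together across genes. Over the 77 genes the log2 fold changes in footprints and in RNA had a Pearson r of 0.68 and a Spearman rho of 0.66, or 0.64 and 0.64 without *psbD* and *psbC*. These describe genes of the same libraries, which are not independent replicates. The sign was the same for 59 of 77 genes. Of all genes, 13 were called in the same direction in both readouts, 5 in footprints alone, 39 in RNA alone and 19 in neither. The RNA-seq libraries were deeper, but standard errors in RNA were not smaller for every gene (*psbF*, 0.23 in RNA and 0.15 in footprints). For *psaA* they were 0.15 in both readouts. Its edgeR unadjusted p was 6.37e-05 in footprints (−1.32) and 1.86e-15 in RNA (−1.59). A gene past the threshold in RNA alone is thus not shown to differ between readouts. That difference is tested by translation efficiency.

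**Figure D4:**
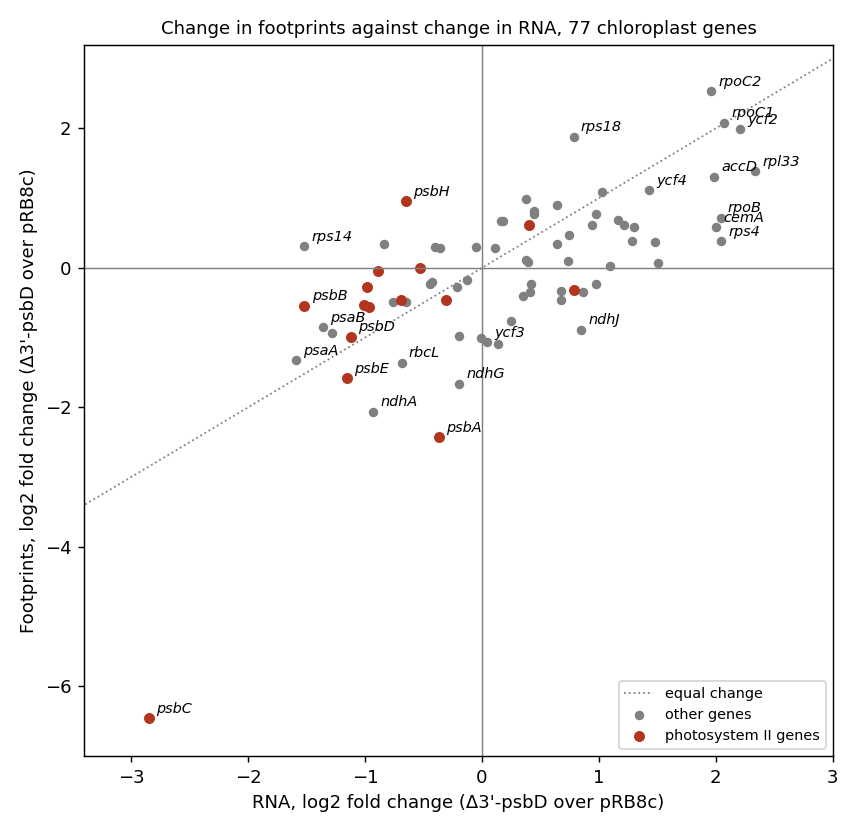
log2 fold change in footprints (y axis) against that in RNA (x axis), Δ3'-psbD over pRB8c, for 77 chloroplast genes, with PSII genes in red and a dotted line of equal change. psbC lies apart at −2.84 in RNA and −6.46 in footprints, psbA lies under the line at −0.37 and −2.43, and psbH and rps14 lie above it.

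In translation efficiency 1 gene was higher (1.3%) and 8 were lower (10.4%) past the threshold by edgeR, and the median over all genes was −0.26. The gene that rose was *rps14* (1.83 ± 0.42, edgeR adjusted p = 0.00779). Among those that fell were the NDH genes *ndhJ* (−1.74 ± 0.26), *ndhG* (−1.46 ± 0.31) and *ndhC* (−1.20 ± 0.27), the ribosomal protein genes *rps4* (−1.66 ± 0.30), *rps19* (−1.43 ± 0.24) and *rps2* (−1.11 ± 0.24), and the PSII gene *psbI* (−1.11 ± 0.23), at edgeR adjusted p of 0.00132 to 0.00779. For *rps4*, RNA rose by 2.05 (± 0.23, edgeR adjusted p = 1.03e-11) while footprints stood at 1286, 1129 and 1880 scaled CPM in Δ3'-*psbD* against 1134, 1037 and 1118 in pRB8c. All 11 NDH genes had a negative efficiency value, with a median of −1.14. PSII genes had 10 positive and 5 negative values and a median of 0.22.

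Values of *psbC* and *psbA* in efficiency were strongly negative but had wide errors. *psbC* stood at −3.62 (± 0.88) with an edgeR adjusted p of 0.0103, *psbA* at −2.07 (± 0.73) with 0.0426, and *psbD* at 0.13 (± 0.30) with 0.714. Without the third replicate of the mutant *psbC* was at −5.15 (edgeR adjusted p = 1.45e-14). *psbA* then passed at −2.70 (edgeR adjusted p = 1.42e-07). *psbB* and *psbH* had positive values, 0.98 (± 0.33, edgeR adjusted p = 0.0362) and 1.60 (± 0.42, edgeR adjusted p = 0.0133), which did not pass, but did without that replicate (0.72 and 1.22, edgeR adjusted p of 0.00495 and 0.00131). With the replicate number as a block and every library kept, *psbC*, *psbA* and *psbH* passed at −4.41, −2.36 and 1.52. Their edgeR adjusted p were 0.00248, 0.00811 and 0.00501, while *psbB* did not pass (0.90, edgeR adjusted p = 0.0459). The values of *psbB* and *psbH* were thus on the other side of the all-gene median from those of *psbC* and *psbA*.

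**Figure D5:**
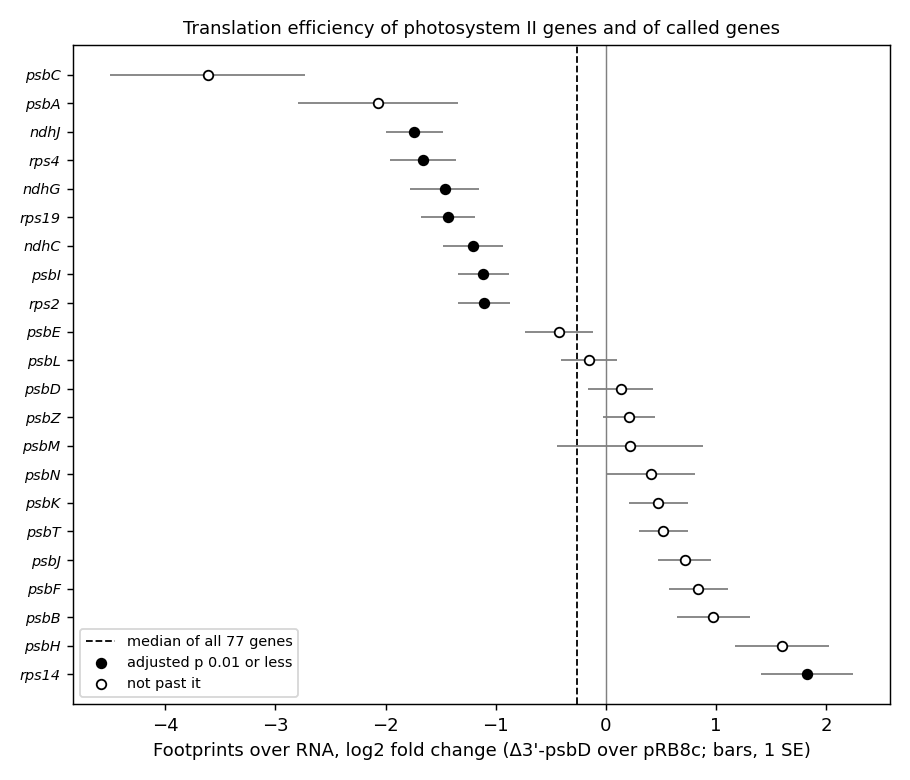
log2 fold change in translation efficiency (footprints over RNA, Δ3'-psbD over pRB8c) with 1 SE for the 15 PSII genes and other called genes, filled where the edgeR adjusted p is 0.01 or less, with a dashed line at the median of all 77 genes. psbC (−3.62) and psbA (−2.07) have the most negative values but wide errors, and rps14 (1.83) is the one gene called higher.

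The mutant was also set directly against ΔpsbJ, a PSII mutant that lacks the *psbJ* gene. In translation output 1 of 77 genes was higher in Δ3'-*psbD* (1.3%), the deleted *psbJ* itself, at 2403, 3186 and 2410 scaled CPM in Δ3'-*psbD* against 20.1, 45.3 and 45.7 in ΔpsbJ (log2 change 6.21 ± 0.38, edgeR adjusted p = 6.09e-05). None was lower by edgeR (0%), with 22 genes (28.6%) in either direction at an unadjusted p under 0.05 and 6 lower by DESeq2's Wald test. *psbC* was at 358, 283 and 2654 scaled CPM in Δ3'-*psbD* against 98369, 128529 and 114448 in ΔpsbJ (log2 change −6.70 ± 1.04, edgeR adjusted p = 0.0132). *psbA* was at 23079, 22608 and 99796 against 314740, 413040 and 370697 (−2.92 ± 0.64, edgeR adjusted p = 0.0282), lower in every Δ3'-*psbD* library. Without the third library of Δ3'-*psbD* both passed (*psbC* at −8.50 and *psbA* at −4.03, edgeR adjusted p of 2.61e-08 and 1.1e-06). *psbE*, at −1.01 ± 0.25 against ΔpsbJ (edgeR adjusted p = 0.0448), also passed without it (−0.82, edgeR adjusted p = 0.00744). *psbB* stood the other way, at 52350, 47970 and 95014 scaled CPM against 34876, 11987 and 23931 (1.46 ± 0.45, edgeR adjusted p = 0.0735). All 4 RNA polymerase genes had positive values with a median of 1.57, among them *rpoC1* at 1.58 (± 0.28, edgeR adjusted p = 0.0134), and none passed.

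ΔpetB/D is a cytochrome *b*6*f* mutant whose deletion also takes out *psbB*, *psbT*, *psbH* and *psbN*, so PSII is hit in it as well. Against it, 7 genes were higher in Δ3'-*psbD* (9.09%) and 1 was lower (1.3%). Among the 7, *psbT*, *psbN*, *psbH*, *petB* and *petD* are genes hit in ΔpetB/D, and *rpl36* was higher as well (1.25 ± 0.21, edgeR adjusted p = 0.00803). *psbB*, deleted in ΔpetB/D too, was at 7.89 (± 1.57, edgeR adjusted p = 0.0146). ΔpetB/D replicates 1 to 3 held 20, 9 and 695 footprints on *psbB*, so the third stood apart. Its chloroplast share of mapped footprints was 22.5%, against 10.8% and 10.3% in ΔpetB/D replicates 1 and 2. Of its chloroplast footprints 34.9% lay in reading frames, against 72.5% and 62.8%. The gene that was lower was *psbC* (−6.63 ± 1.09, edgeR adjusted p = 0.00741), which missed the threshold when Δ3'-*psbD* replicate 1 or 2 or any ΔpetB/D replicate was left out. *psbA* footprints were at 29773, 29165 and 128741 scaled CPM in Δ3'-*psbD* and 27932, 33688 and 43042 in ΔpetB/D. The first 2 libraries of Δ3'-*psbD* lay within the range of ΔpetB/D and the third above it, and the log2 change was 0.84 (± 0.63, edgeR adjusted p = 0.513). *rbcL* was at 0.16 (± 0.28, edgeR adjusted p = 0.858). *psbD* had 39730, 43192 and 59031 scaled CPM in Δ3'-*psbD* against 87444, 79757 and 110960 in ΔpetB/D (−0.97 ± 0.26, edgeR adjusted p = 0.0474). *psbD* thus had nearly the same value against ΔpsbJ (−1.02), ΔpetB/D (−0.97) and pRB8c (−0.99), each time with all 3 Δ3'-*psbD* libraries below those of the other line and short of the threshold. These comparisons share the Δ3'-*psbD* libraries, so they are not independent, and part of the counted *psbD* window is deleted in that line. Without the third Δ3'-*psbD* library *psbD* passed against ΔpsbJ (−1.25, edgeR adjusted p = 0.0026).

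The 19 genes called in translation output kept their direction whichever of the 6 libraries was left out. Their calls did not hold as well. Without Δ3'-*psbD* replicate 1 or any 1 of the pRB8c replicates none of the 19 stayed at or under 0.01 (edgeR adjusted p from 0.0122 to 0.0420), without Δ3'-*psbD* replicate 2 13 did, and without replicate 3 all 19 did. All 53 RNA calls also kept their direction, and 37 to 52 of them stayed past the threshold. Of the 9 calls in translation efficiency, 0 to 2 stayed past it without any one of Δ3'-*psbD* replicates 1 and 2 and the pRB8c replicates, and 9 without Δ3'-*psbD* replicate 3.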

How the data were processed

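Ribo-seq libraries came from RNase I digestion (250 U per ml, footprints of 20 to 39 nt) and RNA-seq libraries from rRNA-depleted total RNA. The authors deposited Ribo-seq values as whole-number counts per chloroplast reading frame, leaving out 10 and 30 nt at its ends and using only the last exon of genes with introns. The RNA-seq values deposited by the authors are estimated counts, of which 94 values in 6 genes were not whole, and they were rounded to whole numbers here. The submitters' processing notes name cutadapt, STAR 2.7.1a, SAMtools, bedtools and FastQC. For the strandness of counting: not given in the sources used here. The 60 deposited RPKM columns were not used.

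Genes reaching 10 counts in 3 libraries were tested with edgeR 4.0.16 (quasi-likelihood, TMM, R 4.3.3) and Benjamini-Hochberg adjustment over all of them, at 0.01. Translation efficiency was the interaction of line and library type. The fits were tested on simulated data with the same dispersion for every gene and no library that stood apart. Such data do not cover the spread between the real replicates. Alternatives used DESeq2 1.42.0, limma 3.58.1 on log2(RPKM + 1), other scalings and filters, RB70 as the control, and leaving out libraries. The study calls the samples biological replicates, and p-values measure only the spread between them. Same-numbered RNA-seq samples of Δ3'-*psbD* and pRB8c deviated together (correlations of 0.36, 0.36 and 0.64), so the replicate block is given where it changes an RNA call. It is also given where it changes a footprint or efficiency call of a PSII gene against pRB8c. Named were all PSII genes, the 8 largest rises and falls among called genes of each readout, up to 4 genes with the largest footprint change of each list, and *rbcL*. Members and lists were chosen with earlier results of these data known. Some genes that the rule names are not reported here.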

Additional observations from a re-analysis of the deposited data

How the results depend on the processing

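The Ribo-seq libraries of the mutant held 302078 to 470814 reading-frame footprints, and what this depth did to the calls was not tested. Without TMM (library totals alone), genes higher and lower numbered 45 and 1 in footprints and 3 and 0 in translation efficiency, 5 were lower in RNA, and 50 and 1 were higher and lower against ΔpsbJ. Several genes changed sign on that scale. In footprints they were *clpP* 0.18, *ndhJ* 0.25, *psaB* 0.29, *ycf3* 0.088, *atpB* 0.94, *atpE* 0.66, *ndhK* 0.91, *petB* 0.92, *psbF* 1.10, *psbI* 0.83, *psbJ* 0.88 and *psbT* 1.15. In RNA they were *atpB* 0.27, *petB* 0.26, *psbH* 0.059, *psbM* 0.0025, *psbT* 0.16, *rbcL* 0.0079 and *ndhD* 0.70, and against ΔpsbJ *psbI* 0.74. DESeq2 size factors gave 19 higher in RNA and 5 higher and 3 lower in efficiency. DESeq2's Wald test gave 19 higher and 17 lower in footprints, 17 higher in efficiency, 8 and 6 against ΔpsbJ and 11 and 5 against ΔpetB/D. limma on log2(RPKM + 1), which divides by reads of all genomes, gave 0 higher and 20 lower in footprints, 5 lower in RNA, 0 and 50 in efficiency and 7 lower against ΔpsbJ. Signs changed there for footprints of *rpl2* −0.46, *rpl23* −0.37, *rpl36* −0.056 and *ycf4* −0.023, for RNA of *atpB* 0.027 and *petB* 0.016, and for efficiency of *atpB* −1.36, *petB* −1.36, *psaI* −1.28, *psaJ* −1.14, *psbD* −1.45, *rpl36* −1.53, *rpoC1* −1.60 and *rps12* −1.24. All 10 lines in 1 fit gave 17 higher in footprints, 20 higher in RNA, 7 and 4 in efficiency, 4 and 4 against ΔpsbJ and 2 lower against ΔpetB/D. With RB70 in place of pRB8c, 5 of the 19 footprint calls, 24 of the 53 RNA calls and 0 of the 9 efficiency calls passed in either direction. The direction of 18, 40 and 5 of these calls, in that order, was that of the main fit. RB70 as the control gave 8 higher and 4 lower in efficiency. Signs changed with it for footprints of *ndhJ* 0.39, for RNA of *atpB* 0.059, *petL* −0.58, *petN* 0.35, *psbA* 1.67, *psbD* 0.32, *psbI* −0.41, *psbN* 0.47, *rbcL* 0.57, *rpoC1* −2.11, *rps15* −0.079, *rps19* −0.37, *ndhI* −1.06 and *ycf3* −2.74, and for efficiency of *ndhG* 0.22, *rps19* 0.078, *rps2* 0.19, *atpF* 4.06, *clpP* 2.99, *psaI* −2.29 and *ycf3* 2.20. Of the genes with a changed sign under RB70, *rpoC1*, *ycf3*, *atpF* and *clpP* have introns. Their mean RNA CPM in RB70 was 33.9, 13.0, 20.8 and 13.2 times that in pRB8c. The rest are not among the 9 single-copy genes with introns compared below. The cause was not tested for any of these.

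At an adjusted p of 0.05, edgeR gave 19 higher and 17 lower in footprints, 6 and 21 in efficiency, 7 and 4 against ΔpsbJ and 11 and 3 against ΔpetB/D. With a change of at least 4-fold asked as well, 2 and 2 remained in footprints, 6 and 1 in RNA and 0 and 0 in efficiency. Leaving out 1 library gave 0 to 12 higher and 0 to 14 lower in footprints, 20 to 31 and 16 to 24 in RNA, and 0 to 5 and 0 to 14 in efficiency. It gave 1 to 6 and 0 to 6 against ΔpsbJ, and 1 to 6 and 0 to 1 against ΔpetB/D. Same-number correlations of the footprint samples were uneven (0.52, −0.02 and 0.38), so whether those samples are paired is not settled. With the replicate block 16 of the 19 footprint calls held, and *psaB*, *rpl2* and *rpl23* missed the threshold. Among the genes named, *psbA*, *ndhD*, *ndhI* and *rpl33* joined the footprint calls. With the replicate block 8 genes were higher and 13 lower in footprints, 3 and 19 in efficiency and 8 and 3 against ΔpsbJ, and in RNA all 53 calls held and *psbA* and *psaI* joined them. Sign changes of values called in neither fit numbered 195.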

Other observations

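The line RB70, a second transplastomic *aadA* control, differed from pRB8c in RNA at genes with introns, a pattern noticed after its values were seen. For 9 single-copy genes with introns the mean RNA CPM of RB70 was 6.34 to 33.9 times that of pRB8c (median 12.4), against a median of 1.85 for the other 69 genes. It exceeded the highest of 7 other lines (ΔpetB/D left out) by 2.92 to 9.01 times, and so did ΔpsaB, the mutant set against RB70, by 2.90 to 14.7 times. Of the 69 other genes, 11 also had RB70 above every other line. In RB70 replicate 1 the RNA reads counted in reading frames (1956068) exceeded the reads mapped to the chloroplast (1765853). As a percent of chloroplast reads, RB70 replicates 1 to 3 stood at 110.8, 95.5 and 109.4 in RNA. ΔpsaB replicates 1 to 3 stood at 114.1, 110.8 and 109.7, and pRB8c at 85.4 to 87.0. The cause was not tested.

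The counted Ribo-seq windows left out 10 nt at the lower and 30 nt at the upper coordinate in 22 of 24 genes on the plus strand and in 41 of 49 on the minus strand. None of the minus-strand genes had them the other way round, so in those 41 genes the 30 nt were left out at the start codon end.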
